A study of Mus musculus with 2 samples.

Results

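The lineage transcription factors of the mammary epithelium were examined in mammary basal cells grown alone or with macrophages. The set was given as a list of 10 gene symbols, and the 10 were found among the 49492 genes of the table. It holds basal factors (Trp63, Id4 and Foxc1), luminal factors (Gata3, Elf3, Ehf, Tfap2c and Tbx3) and factors of both layers (Runx1 and Cebpb).

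Basal cells (lin- CD24+ CD29hi) were sorted from the glands of adult female wild-type mice, 8 to 10 weeks old per the study's methods, and cultured in a 3D matrix gel with EGF and ITS (insulin, transferrin and selenium). In the ctrl group nothing else was added. In the M2 group the wells also held bone marrow-derived macrophages that had been polarised to an M2-like state with Il-4 and Il-13. These sat in a trans-well insert above the gel, were replaced every 2 days, and stayed for 11 to 14 days. The 2 groups hold 1 library each, and how many animals or wells went into a library is not given in the sources used here. No value below could therefore be set against the spread between cultures, and each interval covers counting error only.

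The mammary duct has an outer basal layer and an inner luminal layer, and each layer is kept by its own transcription factors. p63, the product of Trp63, is the central factor of basal and other stratified epithelial cells. Gata3 is needed to form and keep luminal cells, and hormone-sensing luminal cells add Foxa1 and the estrogen receptor, whereas milk-secreting alveolar cells depend on Elf5 and Stat5a. Sorted basal cells can give rise to both layers in culture.

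In genes, 26912610 reads were counted for ctrl and 29413844 for M2. Both libraries carried keratins of both layers, with 81991 (ctrl) and 68968 (M2) reads of the basal keratin Krt14 and 29888 and 36348 reads of the luminal keratin Krt8. Of the basal marker list 1 of 9 genes was at least 2-fold higher in M2 (Krt17) and 1 was at least 2-fold lower (Oxtr), and of the luminal list 1 of 8 was higher (Krt7) and 0 were lower. Over all genes tested, 8.45% were higher and 6.8% lower by the rule given below. The 10 macrophage markers summed to 276 reads in each library, mostly of Cd68 and Csf1r. Tyrobp, Fcer1g and Adgre1 were at 0 in both libraries, and so was the leukocyte marker Ptprc. The 8 fibroblast markers summed to 2981 CPM in ctrl and 2626 in M2 (CPM are reads scaled to the effective library size), mostly Postn, with Col3a1, Col1a2 and Pdgfrb at least 2-fold lower and Dcn at least 2-fold higher in M2. The 5 endothelial markers summed to 2.15 and 2.78 CPM and the 3 adipocyte markers to 2.37 and 0.347.

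By their point values, the lineage factors differed by less than 2-fold between the libraries. For Elf3, the 95% interval of the log2 difference (0.73 to 1.23) also held values past 2-fold. A gene was called when its reads, scaled by library size, differed at least 2-fold between the libraries and the 95% interval of the log2 difference left out 0. By this rule 0 of the 10 factors were higher in M2 and 0 were lower. Of 19233 genes tested, 8.45% were called higher and 6.8% lower, 15.3% together. Of the 14590 genes with at least 1 CPM in both libraries, as each of the 10 factors had, 5.46% were higher and 4% lower, 9.46% together. With 10 genes, a count of 0 is close to these shares and is not a result about the factors. At 1.5-fold, 1 factor (Elf3) was higher and 0 were lower, beside 13.3% and 11.5% of the genes tested and 11.4% and 9.82% of those with at least 1 CPM in both. The median log2 difference (M2 over ctrl) was 0.06 over the 10 factors and -0.0032 over the genes tested, and the median size of the difference regardless of sign was 0.15 against 0.33. Over the genes with at least 1 CPM in both libraries, the median size was 0.26. The factors together took 47856 reads in ctrl against 50287 in M2, which is 0.178% and 0.171% of the library. In bulk RNA, fewer cells of a layer and less RNA per cell cannot be told apart.

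**Figure D1:**
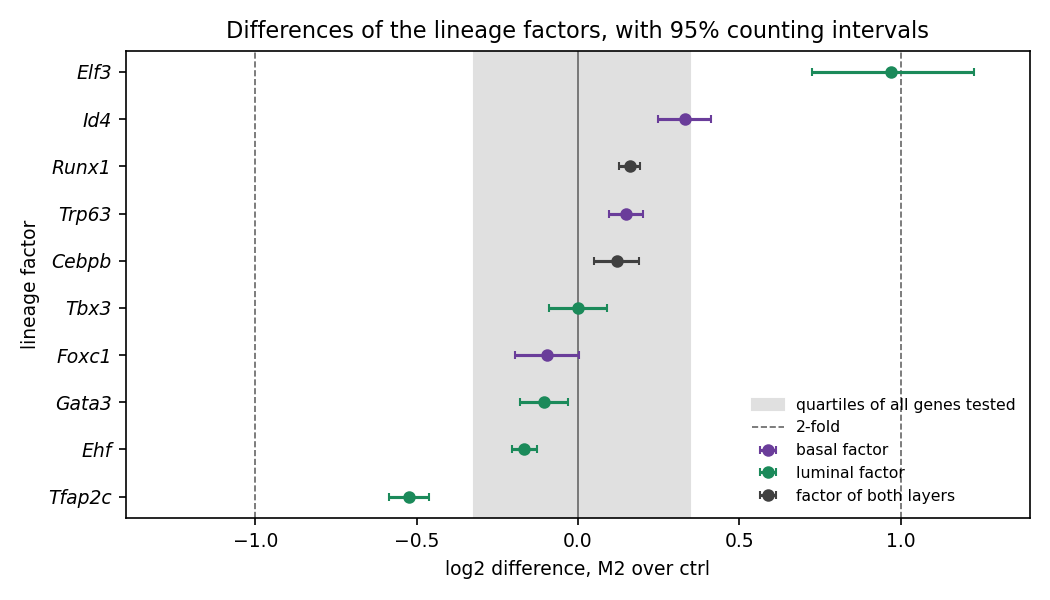
Log2 difference of each lineage factor, M2 over ctrl, with its 95% counting interval, 1 library per group. The grey band spans the quartiles of the genes tested (-0.32 to 0.35), and 8 of the 10 factors lie inside it, against 7 of 10 inside the narrower quartiles of genes with at least 1 CPM in both libraries (-0.26 to 0.27, not drawn), which leave out Id4. Elf3 (0.97) and Tfap2c (-0.52) lie outside both ranges, and no point reaches the dashed 2-fold lines.

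Counting error alone, with each read taken as independent, was small at this depth. For 5 factors the interval lay above 0, for 3 below 0, and for 2 (Foxc1 and Tbx3) it held 0. Among the genes tested, 28.8% had an interval above 0 and 27.9% below 0, 56.7% together. Among those with at least 1 CPM in both libraries, the shares were 31.8% and 31.4%, 63.2% together, beside 8 of the 10 factors.

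Of the basal factors, Trp63 (chromosome 16, 25683763 to 25892102, plus strand, GRCm38; 16 exon blocks) had 5445 reads in ctrl against 6331 in M2. Its level was 23.6 RPKM (reads per kilobase of exon, scaled to the effective library size) in ctrl against 26.2 in M2, a log2 difference of 0.15 (95% interval 0.10 to 0.20). The gene gives a long and an N-terminally shorter protein from separate start sites, and counts per gene cannot tell these forms apart. Trp63 thus stood 10.8% higher in M2 by the counts, at the 62.8 percentile of log2 differences over the genes tested.

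Id4, which pairs with basic helix-loop-helix factors and keeps them from binding DNA, had 2127 reads in ctrl against 2807 in M2 (chromosome 13, 48261427 to 48264036, plus strand). Its level was 46.6 RPKM in ctrl against 58.7 in M2, and its log2 difference of 0.33 (0.25 to 0.41) was the highest after that of Elf3. The gene model in the table ended 1990 bases before the end of Id4 in GENCODE M21, so reads of that 3′ part were not counted. Its exons also share 171 bases with the antisense gene A330033J07Rik, which had 197 and 324 reads.

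Foxc1, a forkhead factor of basal and mesenchymal cells, is a gene of a single exon (chromosome 13, 31806691 to 31810643, plus strand). It had 1698 reads in ctrl against 1666 in M2, a level of 15.6 and 14.6 RPKM. The log2 difference of -0.10 (-0.20 to 0.0017) could not be told from 0 by counting error. Its model was also shorter than that of GENCODE M21, by 1833 bases at the 3′ end. The 8 fibroblast markers had a median log2 difference of -1.25, with 3 called lower and 1 higher, and their part in the value of Foxc1 was not tested.

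Among the luminal factors, Gata3 (chromosome 2, 9857078 to 9890034, minus strand; 10 exon blocks) had 2971 reads in ctrl against 2896 in M2. The level was 27.2 RPKM in ctrl against 25.3 in M2, a log2 difference of -0.11 (-0.18 to -0.03). The level in M2 thus differed by -7.09% from that in ctrl. Other transcripts at the locus had fewer reads than Gata3. Counts were 154 and 160 for Gm13256, 217 and 152 for 4930412O13Rik, and 206 and 181 for 9230102O04Rik. The exons of Gata3 share 155 bases with Gm13256, 77 with 9230102O04Rik and 0 with 4930412O13Rik. The effect of shared reads on the value of Gata3 was not tested.

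Elf3 encodes an epithelial ETS factor that is known to respond to inflammatory cytokines through NF-κB. The gene (chromosome 1, 135253575 to 135258568, minus strand; 9 exon blocks) had 197 reads in ctrl against 406 in M2. The level was 3.23 RPKM (95% interval 2.80 to 3.72) in ctrl and 6.35 (5.75 to 7.0) in M2. The fold difference of 1.96 was the largest of the set, with a log2 value of 0.97 (0.73 to 1.23) at the 90.2 percentile of the genes tested, and fell just short of the threshold. Elf3 also had the lowest level of the 10 factors in both libraries, and its interval was the widest.

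Reads of Elf3 could be mixed with those of Gm26642, a gene on the opposite strand that shares 162 exon bases with it, which is 7.31% of the Elf3 exons. Gm26642 had 258 reads in ctrl against 360 in M2, a log2 difference of 0.41 (0.18 to 0.65). If the reads of both genes were summed, the log2 difference was 0.68. That sum takes in all reads of Gm26642, most of whose span lies outside Elf3, so it sets no bound on the value of Elf3. Whether the counting used strand is not given in the sources used here. The size and direction of any effect of shared reads on the value of Elf3 are thus not known.

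Upstream sequence was compared for the factor with the largest difference. RefSeq entries (GRCm38.p6) were found for 6 of the 10 factors, 7 start sites in all, and none was found for Trp63, Ehf, Tfap2c and Tbx3. The 250 bases before each start were searched on both strands for the 10-base NF-κB consensus and for the AP-1 motif TGANTCA, both chosen after the differences were seen. The NF-κB consensus occurred in the windows of Elf3 and Foxc1 and in 7.25% of 32851 windows of that length. The AP-1 motif occurred in 0 of the 7 windows and in 6.75% of the 32851. GC content was 57.2% in the Elf3 window and 70.8% in that of Foxc1, beside a median of 52.4% over all windows. The shares over all windows were not matched for GC content. The NF-κB match began 108 bases before the start of Elf3 on the opposite strand and 75 bases before the start of Foxc1. The 2 windows are shown because both hold the motif, in capitals, while the log2 differences of the genes were 0.97 and -0.10. The Elf3 window is chr1:135258473-135258722, minus strand, and the Foxc1 window is chr13:31806396-31806645, plus strand, both written 5′ to 3′ on the strand of the gene. The RefSeq start of Elf3 lies inside the gene model of the table, so the last part of its window overlaps that model.
Elf3: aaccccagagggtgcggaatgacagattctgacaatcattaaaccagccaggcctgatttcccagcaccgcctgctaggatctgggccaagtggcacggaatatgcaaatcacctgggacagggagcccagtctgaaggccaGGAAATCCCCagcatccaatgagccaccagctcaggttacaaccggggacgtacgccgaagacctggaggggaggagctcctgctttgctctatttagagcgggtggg
Foxc1: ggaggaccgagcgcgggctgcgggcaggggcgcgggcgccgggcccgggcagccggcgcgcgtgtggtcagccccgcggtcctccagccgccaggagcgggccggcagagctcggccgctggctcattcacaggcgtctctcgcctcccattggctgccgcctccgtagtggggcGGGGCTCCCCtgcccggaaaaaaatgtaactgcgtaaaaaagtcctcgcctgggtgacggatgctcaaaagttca
A match of letters is a description and not a bound site.

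Ehf, the other epithelial ETS factor of the set, had 11348 reads in ctrl against 10610 in M2 (chromosome 2, 103263433 to 103303278, minus strand; 12 exon blocks). Its level was 74.1 RPKM in ctrl against 66.0 in M2, and the log2 difference was -0.17 (-0.20 to -0.13). Ehf was the most abundant luminal factor in both libraries, and Elf3 the least abundant. Within a library, where scaling plays no part, the ratio of Elf3 to Ehf reads went from 0.0174 in ctrl to 0.0383 in M2, by 1.14 (0.89 to 1.39) on the log2 scale.

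Tfap2c, which encodes the AP-2γ factor, had 5191 reads in ctrl against 3788 in M2 (chromosome 2, 172549593 to 172558622, plus strand; 9 exon blocks). Its level was 51.4 RPKM in ctrl against 35.7 in M2. The log2 difference of -0.52 (-0.58 to -0.46), or -30.4%, was the lowest of the set and lay at the 16.8 percentile of the genes tested. Tfap2c was the third in level among the 10 factors in ctrl and the fifth in M2, below Id4 and Runx1.

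Tbx3, a T-box factor required to form the mammary bud, had 1952 reads in ctrl against 2047 in M2 (chromosome 5, 119670669 to 119684724, plus strand; 9 exon blocks). The level was 10.7 RPKM in both, and the log2 difference was -0.00069 (-0.09 to 0.09). Its exons share 115 bases with the antisense gene Tbx3os1, which had 95 and 122 reads.

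Of the factors of both layers, Runx1 had the most reads of the set, 13749 in ctrl against 16113 in M2 (chromosome 16, 92601466 to 92826149, minus strand; 9 exon blocks). Its level was 42.3 RPKM in ctrl against 47.3 in M2, a log2 difference of 0.16 (0.13 to 0.19). Runx1 is transcribed from 2 promoters, and both start sites had a RefSeq entry, but the counts do not separate them. Cebpb, which takes part in alveolar development and in acute inflammation, had 3178 and 3623 reads (chromosome 2, 167688915 to 167690418, plus strand; 1 exon). Per length Cebpb stood highest of the 10 factors, at 76.9 RPKM in ctrl against 83.6 in M2, with a log2 difference of 0.12 (0.05 to 0.19). It shares 312 exon bases, or 20.7% of its exons, with Tmem189 on the opposite strand, which had 1760 and 1887 reads. Macrophages also express Runx1 and Cebpb. The 10 macrophage markers had 276 reads in all in each library, with 7 of them at or under 3 reads in ctrl against 6 in M2. Most of these reads were of Cd68 (170 in ctrl and 165 in M2) and Csf1r (94 and 92).

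**Figure D2:**
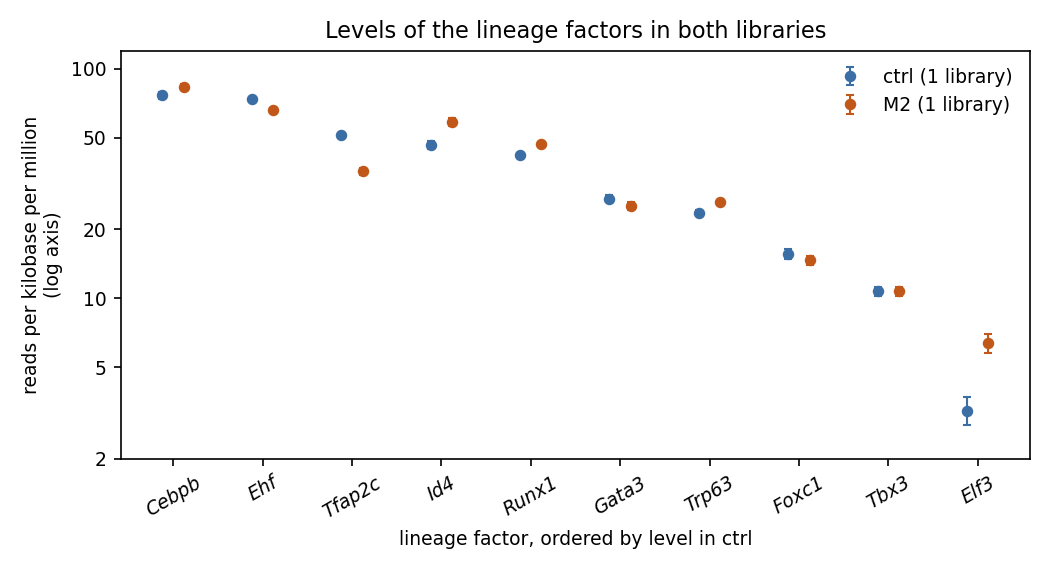
Level of each lineage factor in RPKM, on a log axis, for the ctrl and for the M2 library with exact Poisson 95% intervals, which are hidden by the point for most genes. The factors run from 76.9 (Cebpb) to 3.23 (Elf3) in ctrl and from 83.6 to 6.35 in M2, and the points of most factors lie close together.

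The order of the levels per length was nearly the same in both libraries. In ctrl it ran Cebpb, Ehf, Tfap2c, Id4, Runx1, Gata3, Trp63, Foxc1, Tbx3 and Elf3, and in M2 Cebpb, Ehf, Id4, Runx1, Tfap2c, Trp63, Gata3, Foxc1, Tbx3 and Elf3. The neighbours Cebpb and Ehf in ctrl, and Trp63 and Gata3 in M2, had overlapping counting intervals. The length used is that of all annotated exons together, so a gene with several start sites, such as Runx1 or Trp63, is given a lower level than its expressed form may have. Each factor except Elf3 stood at the 73.4 percentile of levels or higher among the genes tested in both libraries, and Elf3 stood at the 46.8 percentile in ctrl and the 62.1 percentile in M2.

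Ratios within a library compared basal with luminal genes without any scaling, for pairs chosen after their values were seen. Only Gata3 and Tfap2c, both with negative differences, served as the luminal factor. Relative to Elf3 (log2 difference 0.97) each basal factor was lower in M2, since the highest basal value was 0.33 (Id4). The ratio of Trp63 to Gata3 reads went from 1.83 in ctrl to 2.19 in M2, with a log2 change of 0.25 (95% interval 0.16 to 0.34). The ratio of Id4 to Gata3 changed by 0.44 (0.33 to 0.55), and that of Trp63 to Tfap2c, from 1.05 to 1.67, by 0.67 (0.59 to 0.75). The ratio of Foxc1 to Gata3 changed by 0.0094 (-0.11 to 0.13), an interval that held 0. Summed per length, the 3 basal factors went from 85.9 to 99.5 RPKM and the 5 luminal factors from 167 to 144 RPKM. The basal to luminal ratio thus changed by 0.42 on the log2 scale. Most of the basal rise came from Id4 (46.6 RPKM in ctrl against 58.7 in M2). Most of the luminal fall came from Tfap2c (51.4 against 35.7), so the ratio of sums rests largely on Id4 and Tfap2c. The basal keratins did not share a direction relative to Krt8. The ratio of Krt14 to Krt8 reads went from 2.74 to 1.90, a log2 change of -0.53 (-0.56 to -0.51), that of Krt5 to Krt8 from 1.89 to 2.30, a change of 0.29 (0.26 to 0.31), and that of Krt17 to Krt8 from 0.202 to 0.456, a change of 1.17 (1.13 to 1.22).

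The close relatives of the factors had larger differences by the median size. Of 30 relatives and partners listed, 21 had at least 10 reads in all, and their median log2 difference was 0.03. Of the 21, 1 was called higher and 3 lower, beside 8.45% and 6.8% of the genes tested. The median size regardless of sign was 0.54, against 0.15 for the 10 factors and 0.33 for the genes tested. The 21 include genes with few reads, such as Foxc2 (0 and 11) and Gata6 (3 and 7). Each of the 10 factors had at least 1 CPM in both libraries, so the filters were unlike. Elf5, the alveolar ETS factor that lies 108410 bases from Ehf on chromosome 2, had 5704 reads in ctrl against 2776 in M2, a log2 difference of -1.11 (-1.17 to -1.04). The ratio of Ehf to Elf5 reads thus went from 1.99 to 3.82, a log2 change of 0.94 (0.87 to 1.02), although the genes are neighbours. Spdef, a further ETS factor, had 37 and 8 reads and was also called lower.

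Within the Id family, Id4 was the factor with the positive difference. Id3 had 543 reads in ctrl against 183 in M2 and was called lower, with a log2 difference of -1.63 (-1.89 to -1.39). Id1 (297 and 216 reads) and Id2 (3909 and 2811 reads) had log2 differences of -0.53 and -0.54. The ratio of Id4 to Id2 reads went from 0.544 to 0.999, a log2 change of 0.88 (0.77 to 0.98), and that of Id4 to Id3 from 3.92 to 15.3, a change of 1.97 (1.71 to 2.22).

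The AP-2 factors differed among themselves as well. Tfap2a had 3684 and 4002 reads (log2 difference 0.05) and Tfap2b 4854 and 2775 (-0.88), with Tfap2c between them at -0.52. In the C/EBP family, Cebpd had 771 and 1413 reads (0.80), and the ratio of Cebpb to Cebpd fell by 0.68 (95% interval -0.83 to -0.54) on the log2 scale. Runx1 was set against its partner Cbfb, the subunit that stabilises it on DNA, with 5009 and 4408 reads (-0.25), and against Runx2 with 1635 and 1164 reads (-0.56). In the p53 family, Trp73 had 128 and 251 reads (0.90) and Trp53 2096 and 2927 (0.41), both with larger differences than Trp63. Foxc2, a relative of Foxc1, had 0 reads in ctrl against 11 in M2 and was the relative called higher. Of the listed relatives of Gata3, Gata6 had the most reads, 3 and 7, and of the T-box relatives Tbx2 had the most, 28 and 26.

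**Figure D3:**
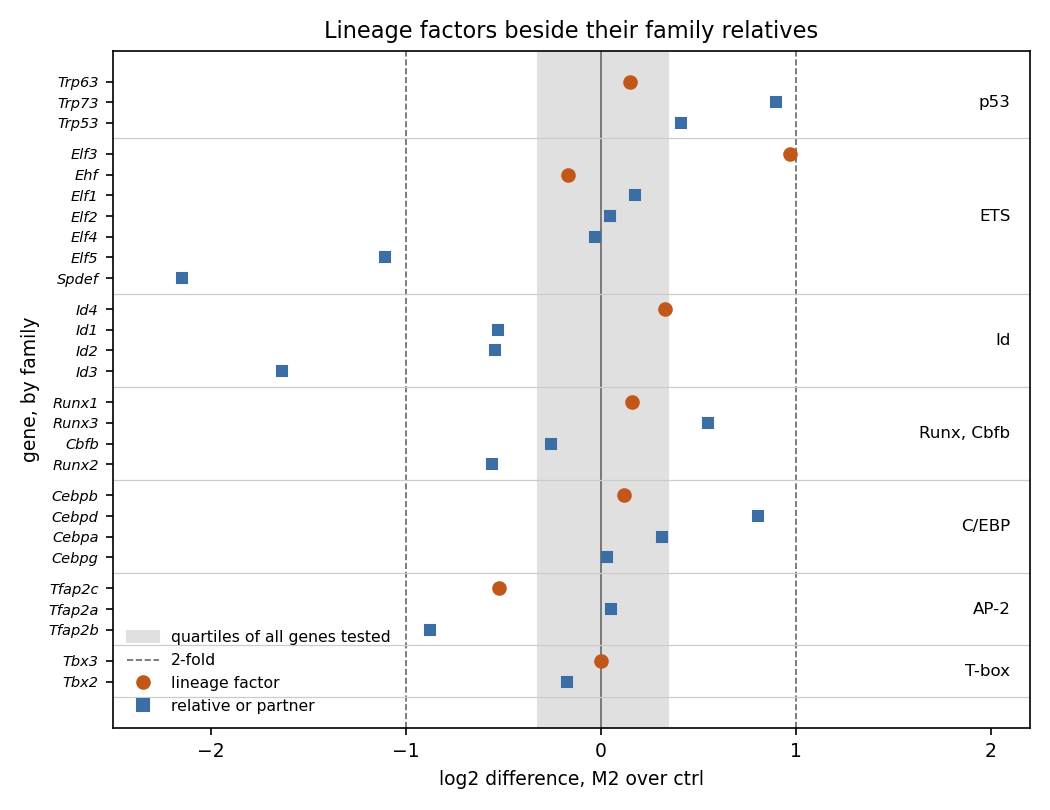
Log2 difference, M2 over ctrl, of the lineage factors (circles) and of their family relatives and the Runx partner Cbfb (squares) with enough reads, 1 library per group. Elf5 (-1.11), Spdef (-2.15) and Id3 (-1.63) lie beyond the dashed 2-fold line on the lower side, and the circles lie inside both lines. The relatives of Gata3 and Foxc1, with at most 11 reads in a library, are not drawn.

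Other factors of each lineage were compared from lists put together with earlier results of these data known. Of 8 further basal factors, 7 were tested, and 0 were called higher and 1 lower, beside 8.45% and 6.8% of the genes tested. Their median log2 difference was 0.16. The gene called was Egr2, with 1261 reads in ctrl against 512 in M2 (-1.37). Sox10, with 9278 and 7795 reads (-0.32), and Tead1, with 4327 and 5071 (0.16), had the most reads of those not called.

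The hormone-sensing luminal factors had lower values in M2 for the most part, while Gata3 was near 0. Of 8 factors, 4 were called lower and 1 higher, beside 6.8% and 8.45% of the genes tested. A negative difference was seen for 6 and a positive one for 2, and the median was -1.25. Pgr, the progesterone receptor, had 3195 reads in ctrl against 575 in M2 (-2.54), Esr1, the estrogen receptor, had 1028 and 281 (-1.94), and Foxa1, which opens chromatin for it, had 2443 and 873 (-1.55). Spdef, given above among the ETS factors, was the fourth gene called lower. Against each of the first 3 the share of Gata3 was larger in M2, since the ratio of Gata3 to Foxa1 reads went from 1.22 to 3.32, a log2 change of 1.45 (1.31 to 1.58), that of Gata3 to Esr1 from 2.89 to 10.3, and that of Gata3 to Pgr from 0.930 to 5.04. Xbp1, a factor of secretory cells, was called higher with 4191 and 8947 reads (1.02), but its value was 0.97 with scaling by total reads and it was then not called. Myb had 2666 and 2355 reads (-0.25). Cited1, named here for its positive difference, had 197 and 369 reads (0.83) and was not called. The 8 general luminal markers, beside these, had a median of 0.04, with 0 called lower.

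Of the 14 luminal progenitor and alveolar factors, 13 had a negative difference, 3 were called lower and 0 higher, and the median was -0.53. The 3 were Elf5, Stat5a (2186 and 1091 reads, -1.07), the mediator of prolactin signals, and Grhl1 (2277 and 852 reads, -1.49). Nfib (16057 and 12966 reads, -0.38) and Sox9 (8148 and 6791 reads, -0.33) had the most reads of those not called. Over both luminal lists, 7 of 22 factors were called lower and 1 higher, beside 6.8% and 8.45% of the genes tested. Among genes with at least 1 CPM in both libraries, the shares were 4% and 5.46%.

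Target genes of p63 in stratified epithelia did not share a direction. Of 10, 1 was called higher and 0 lower, beside 8.45% and 6.8% of the genes tested. A positive difference was seen for 4 and a negative one for 6, beside 9562 and 9671 of the genes tested. With 10 genes, these counts are close to the shares over all genes and are not a result about the targets. The median was -0.30, and the value of Trp63 itself was 0.15. Itga3, an integrin subunit of the basal cell surface, was the gene called, with 2823 and 7455 reads (1.33). Of the basal keratins, Krt5 had 56383 and 83619 reads (0.50) and Krt14 had 81991 and 68968 (-0.32).

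**Figure D4:**
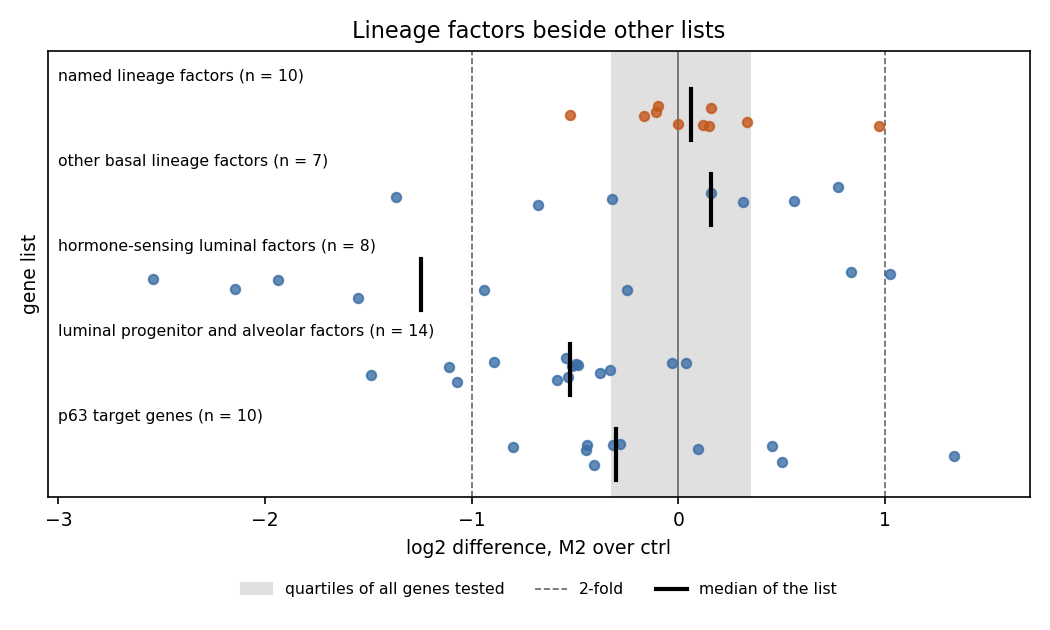
Log2 difference, M2 over ctrl, of each gene tested in the named set and in 4 further lists, 1 point per gene, spread vertically at random for legibility, with a black bar at each list's median. The named factors centre near 0 (median 0.06), while the hormone-sensing luminal factors have a median of -1.25 and the luminal progenitor and alveolar factors one of -0.53.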

How the data were processed

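The data are 2 RNA-seq libraries, ctrl and M2, grouped by their titles. The authors deposited whole-number read counts per gene, not normalized. Per the labels, a SMARTER kit for mRNA was used, and the submitters' processing notes name the build GRCm38 (mm10). The aligner, counter, annotation and strand setting are not given in the sources used here. Coordinates are those of the table.

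Genes with at least 10 reads in all were tested (19233). Library sizes of 26912610 and 29413844 reads were scaled by TMM in edgeR 4.0.16 under R 4.3.3 (factors 1.02 and 0.980). The log2 difference used a pseudocount of 1. Intervals (95%) are Clopper-Pearson for the M2 share of a gene's reads, from which differences follow, exact Poisson for levels and normal on the log scale for ratios, computed in scipy 1.17.1. The intervals cover counting error only and take each read as independent. Reads without molecular identifiers are not independent molecules, so the intervals can be too narrow even for counting error. With 1 library per group no dispersion could be estimated and no p-value is given. Functions were tested on simulated counts. The members and lists (other basal, hormone-sensing luminal, progenitor and alveolar factors, relatives, p63 targets and cell type markers) were chosen with earlier results of these data known. The 10 factors, the genes called in each list (at most 6) and the 2 with most reads among those not called are named, as are genes that overlap a factor and the keratins Krt14 and Krt8. A gene that this rule names in the hormone-sensing list is not reported here. Other relatives and ratios were chosen after their values were seen. Alternatives covered scaling (including DESeq2 1.42.0 size factors), pseudocount, filters, thresholds and trends with length and GC content. Upstream windows are from RefSeq.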

Additional observations from a re-analysis of the deposited data

How the results depend on the processing

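None of the 10 lineage factors was called at 2-fold under any of the other scalings, pseudocounts and trend corrections. The count was also 0 with other filters, the 2-fold threshold alone, an exact binomial test added, or the edgeR exactTest. Those settings keep the point values, each under 2-fold, and still ask for 2-fold. Their outcome was thus fixed in advance and adds nothing. With a 1.5-fold threshold 1 factor, Elf3, was higher and 0 were lower. Over the 10 alternatives of scaling, pseudocount, filter and trend, the log2 difference of Elf3 ran from 0.90 to 0.97, of Tfap2c from -0.59 to -0.51, of Id4 from 0.23 to 0.37, of Trp63 from 0.08 to 0.21, of Gata3 from -0.18 to -0.09, of Ehf from -0.24 to -0.13, of Runx1 from 0.09 to 0.22, of Cebpb from 0.03 to 0.13 and of Foxc1 from -0.17 to -0.08. That of Tbx3, from -0.07 to 0.07, changed sign, and so did the median of the 10 factors, from -0.01 to 0.06. Adding the antisense reads of Gm26642, chosen after seeing the data, took Elf3 to 0.68.

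Over all genes, 1626 were called higher and 1308 lower. The numbers were 797 and 583 among genes at 1 CPM or more in ctrl and in M2, 2564 and 2221 at 1.5-fold, and 964 and 691 in the edgeR exactTest if a biological coefficient of variation of 0.2 was assumed, or 175 and 130 at 0.4. At any fold, the exact binomial test on the reads passed 8 of the 10 factors at an adjusted p of 0.05, and the edgeR exactTest 1 at an assumed coefficient of 0.1 and 0 at 0.2 or 0.4. These compare the 2 libraries and not the conditions.

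Among the genes named from the other lists, the call of Xbp1 changed under these alternatives, since it was not called with scaling by total reads (0.97) or once the trend with gene length was removed (0.99). The median of the hormone-sensing luminal factors was -0.94 with at least 1 CPM in both libraries, because Spdef was then left out. The correction for GC content was chosen after seeing the data. No paired analysis was possible because ctrl and M2 are 1 library each, and for the same reason no replicate could be left out.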

Other observations

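Beside Tbx3 lies the non-coding gene Tbx3os2 (chromosome 5, 119685095 to 119691218, minus strand). Its 3′ end lies 371 bases beyond the 3′ end of Tbx3, and it shares no exon with Tbx3. Tbx3os2 was chosen after its values were seen. It had 111 reads in ctrl against 27 in M2, a log2 difference of -2.07 (95% interval -2.77 to -1.49), while Tbx3 itself had 1952 and 2047 reads. At the Runx1 locus, the antisense gene Gm26626 had 705 and 843 reads, a log2 difference of 0.19 (0.04 to 0.34), beside 0.16 for Runx1. Within Trp63, Gm24928 and Gm27005 had 0 reads in both libraries.

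Of the basal factors outside the named set, Lbh, a nuclear cofactor of basal cells, had the highest log2 difference of its list, 0.77, with 2431 reads in ctrl against 4354 in M2. It was not called and was chosen after its values were seen.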
